A study of Arabidopsis thaliana with 9 samples.

Results

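AT5G35940 encodes a jacalin-related lectin of Arabidopsis thaliana. It was examined as 1 gene, on the single row of the array that the platform annotation gives to it, among 16746 rows that are each paired with exactly 1 gene. It was chosen by its measured signal in these arrays, which lay far lower in the mutants than in the wild type, so its differences from Col-0 are described here without a test, and values picked for their size tend to overstate it. The roots came from hcr1-1 and hcr1-2, lines mutated in HCR1 (HYDRAULIC CONDUCTIVITY OF ROOT 1, AT3G24715) in the Col-0 ecotype, and from wild type Col-0. All 3 genotypes grew in hydroponics with ample potassium and short of oxygen (pO2 11.1 ± 1.1%) until roots were taken at 21 days, so every comparison concerns genotype within hypoxia. Each genotype had 3 arrays, labelled biological replicates, and each array was made from a pool of 5 plants, so the spread between arrays is one between pools. Where in HCR1 the mutant lines are disrupted is not given in the sources used here. In whole roots, fewer cells of a type and less RNA per cell cannot be told apart.

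Jacalin-related lectins are sugar-binding plant proteins built from a domain first known from the seed lectin of jackfruit, and most prefer mannose or galactose. Arabidopsis has a large family of them, often encoded by neighbouring genes. Some, such as PBP1, bind PYK10, the abundant beta-glucosidase that roots store in bodies derived from the endoplasmic reticulum, and others form part of the proteins that steer the breakdown of glucosinolates, the defence compounds of the cabbage family. HCR1, a kinase of the Raf-like class, controls how readily water passes through roots, in a way that depends on potassium and oxygen supply.

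The array medians over all rows ran from 3.41 to 3.48 in log2 signal, and any 2 arrays had a Pearson r of 0.973 to 0.984 across rows, which are not independent replicates. The mutated gene was read first. HCR1 signal was 3.46, 3.25 and 2.36 (log2) in hcr1-1, 4.24, 4.38 and 4.30 in hcr1-2, and 4.60, 4.85 and 4.88 in Col-0. HCR1 signal was thus lower in all 6 mutant arrays, as the labels have it, a separation that 0.711% of all rows showed. Its log2 difference from Col-0 was -1.76 in hcr1-1 (SE 0.23, limma adjusted p = 0.130) and -0.48 in hcr1-2 (SE 0.23, limma adjusted p = 0.903). HCR1 was therefore not called in either line, and its difference in hcr1-2 was small, so this is a limited check of the labels.

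AT5G35940 signal (log2, robust multi-array average) was 3.68, 3.29 and 4.39 in hcr1-1 replicates 1 to 3. In hcr1-2 replicates 1 to 3 it was 3.70, 3.55 and 3.62. In Col-0 replicates 1 to 3 it was 4.69, 4.51 and 4.96. Every one of the 6 mutant arrays read lower than every Col-0 array, and the gap between the highest mutant array, hcr1-1 replicate 3, and the lowest Col-0 array, replicate 2, was 0.12. The genotype means were 3.78 ± 0.56 in hcr1-1, 3.62 ± 0.075 in hcr1-2 and 4.72 ± 0.23 in Col-0 (SD, n = 3 each). From low to high the order was hcr1-2, hcr1-1, Col-0, and the lower pair overlapped. The mutant lines differed in how evenly their pools read: the hcr1-2 arrays were nearly alike, while those of hcr1-1 spread over 1.10.

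Roots of hcr1-1 had 52.3% of the Col-0 signal, which is a log2 difference of -0.94 (SE 0.23 from limma). Roots of hcr1-2 had 46.8% of it, at a log2 difference of -1.10 (SE 0.23), and the mean of both lines was 49.5% of it, at -1.02 (SE 0.20). These comparisons share their Col-0 arrays. In hcr1-1, 2 of the 16746 rows had a lower difference than AT5G35940, in hcr1-2 14 did, and in the mean of both lines 9 did. A full separation of the arrays, with the mutant lower, was also seen in 4.02% of rows for hcr1-1, in 4.34% for hcr1-2 and in 0.711% for the 6 mutant arrays together. Since the gene was picked for these differences, nothing further is read from its place among the rows.

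**Figure D1:**
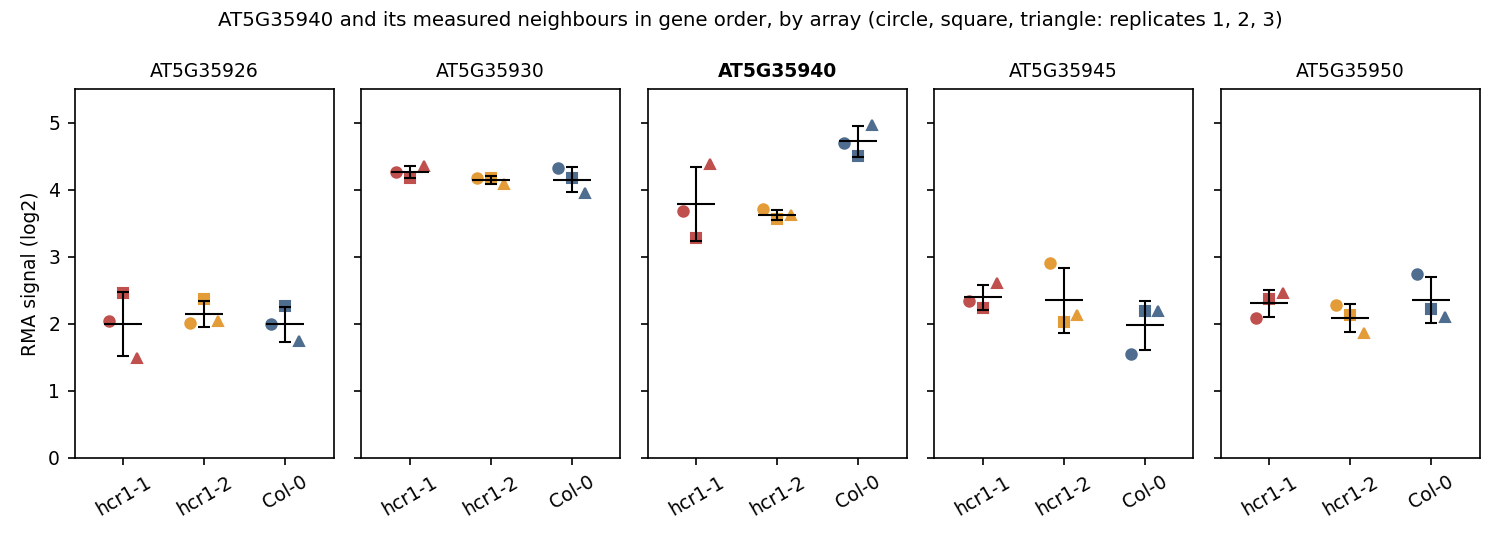
RMA signal (log2, vertical axis) of AT5G35940 and of the 2 measured loci on either side of it in gene order, for hcr1-1, hcr1-2 and Col-0. Points are arrays, the long dash is the mean and the bar the SD (n = 3). AT5G35940 lies lower in all 6 mutant arrays than in Col-0, with hcr1-1 replicate 3 at 4.39 closest to Col-0, while mutant and Col-0 arrays overlap for AT5G35926, AT5G35930 and AT5G35950. For AT5G35945 all 3 hcr1-1 arrays lie above Col-0, and hcr1-2 overlaps with it. AT5G35926, AT5G35945 and AT5G35950 are dim, so a difference in them can be missed.

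The mutant lines were also set against each other, again as a description, since this difference is made of the values that chose the gene. AT5G35940 was 0.16 lower in hcr1-2 than in hcr1-1 (log2, SE 0.23, 95% interval -0.66 to 0.34), and the arrays of the lines overlapped. The interval admits a difference of up to 0.66 below hcr1-1, so equal levels are not shown. Without hcr1-1 replicate 3 the sign turned to 0.14, and without hcr1-1 replicate 2 the difference was -0.41. HCR1 itself differed the other way between the lines, at 1.28 (SE 0.23) higher in hcr1-2 with an adjusted p of 0.719 by limma over all rows, of which 0% were called between the lines.

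The arrays of a genotype varied more for this gene than for most. Its SD within genotype was 0.35 (log2), against a median of 0.18 over the tested rows, and 95.01% of rows had a smaller one. The widest deviations from a genotype mean were both in hcr1-1, at 0.60 in replicate 3 and -0.50 in replicate 2. HCR1 signal was at its lowest in hcr1-1 replicate 3, the mutant array in which AT5G35940 was at its highest. Leaving out hcr1-1 replicate 3 took the difference of hcr1-1 from Col-0 to -1.24, and leaving out hcr1-1 replicate 2 took it to -0.69. Leaving out each array in turn gave -1.20 to -0.98 for hcr1-2 against Col-0. The mean signal of 4.04 over 9 arrays lay above that of 58.4% of all rows of the table. Signal strength also depends on the probes of a row, so this is a guide to brightness and not a rank of expression.

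**Figure D2:**
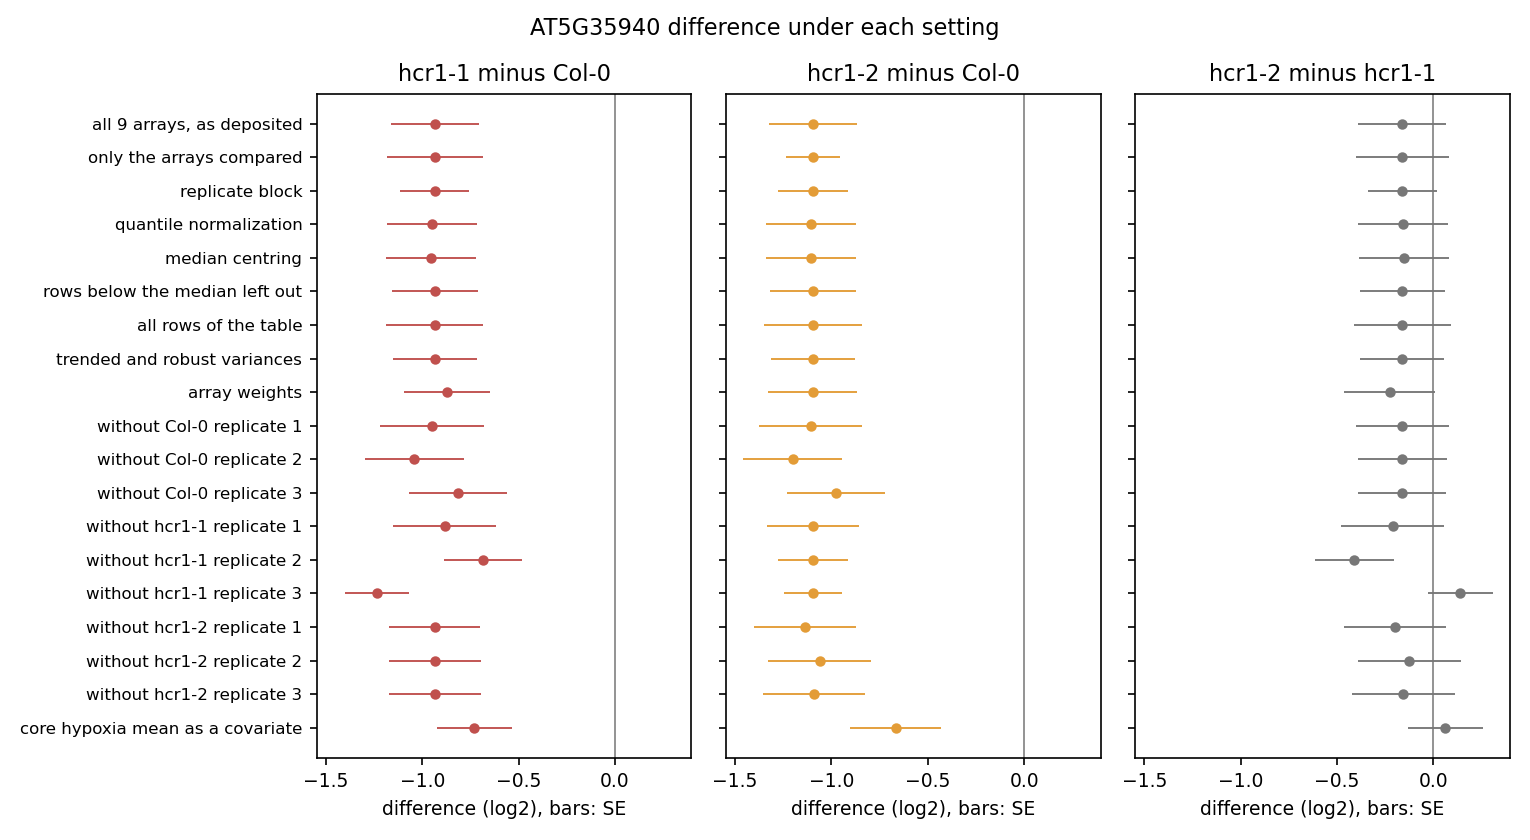
Log2 difference of AT5G35940 (horizontal axis) in hcr1-1 minus Col-0, hcr1-2 minus Col-0 and hcr1-2 minus hcr1-1, under each processing setting down the page. Points are fitted differences and bars their SE. Both differences from Col-0 stay below 0 in every setting shown, which leaving out arrays or changing only the SE could not alter. The difference of hcr1-2 minus hcr1-1 stands at 0.14 without hcr1-1 replicate 3 and at 0.062 with the core hypoxia mean in the model.

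The loci around AT5G35940 were read next. On one side the nearest measured ones are AT5G35926 and AT5G35930, and on the other AT5G35945 and AT5G35950. AT5G35950 is itself a jacalin-related lectin gene. AT5G35950 signal was 2.08, 2.38 and 2.47 (log2) in hcr1-1, 2.27, 2.13 and 1.86 in hcr1-2, and 2.74, 2.21 and 2.11 in Col-0. The 3 genotypes overlapped, and the log2 differences from Col-0 were -0.05 (SE 0.18) in hcr1-1 and -0.27 (SE 0.18) in hcr1-2. AT5G35945, the locus next to AT5G35940 on that side, read 2.34, 2.24 and 2.61 in hcr1-1, 2.90, 2.02 and 2.12 in hcr1-2, and 1.55, 2.18 and 2.19 in Col-0. Its hcr1-1 arrays lay above Col-0, as in 5.18% of all rows, and its log2 difference was 0.42 (SE 0.24) in hcr1-1 and 0.37 (SE 0.24) in hcr1-2. AT5G35930 differed from Col-0 by 0.11 (SE 0.12) in hcr1-1 and 0.00 (SE 0.12) in hcr1-2, and AT5G35926 by 0.00 (SE 0.22) in hcr1-1 and 0.15 (SE 0.22) in hcr1-2. None of these 4 loci was called in any of the comparisons (limma, adjusted p from 0.924 to 1), where 0% of all rows were called. AT5G35926, AT5G35945 and AT5G35950 were dim, with means of 2.05, 2.24 and 2.25 beside a lower quartile of 1.93 and a median of 3.41 over all rows. A difference can be missed at such signals, so these loci are not shown to be unchanged.

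Of 49 listed jacalin-related lectin loci, 36 had a row of their own, AT5G35940 included. For the other 35 the median log2 difference from Col-0 was -0.031 in hcr1-1 and 0.00080 in hcr1-2, beside medians over all rows of 0.0029 and 0.011. In hcr1-1, 19 of the 35 lay below Col-0 and 16 above it, and the values ran from -0.27 to 0.20. In hcr1-2, 17 lay below and 18 above, from -0.38 to 0.49. By limma 0 of the 35 were called in any comparison after adjustment over all rows, and 0% of all rows were. At an unadjusted p under 0.05, hcr1-1 gave 0 in either direction, where 1.28% of all rows were lower and 1.95% higher. In hcr1-2 the unadjusted count was 2 lower and 3 higher, or 5.71% and 8.57% of the list, where 2.35% and 3.05% of all rows were. In the mean of both lines it was 1 lower and 1 higher, where 1.64% and 2.08% of all rows were, and in hcr1-2 minus hcr1-1 it was 0 lower and 3 higher, where 2.31% and 3.02% of all rows were. No other member had all 6 mutant arrays below Col-0, a separation seen in 0.711% of all rows.

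The members at an unadjusted p under 0.05 in hcr1-2 went both ways. JAL31 (AT3G16430), a close relative of the PYK10-binding lectin PBP1, had a signal of 4.49, 4.53 and 4.32 (log2) in hcr1-1, 4.75, 4.94 and 4.53 in hcr1-2, and 4.38, 4.39 and 4.1 in Col-0. The hcr1-2 arrays all lay above Col-0, as in 6.1% of all rows, while those of hcr1-1 overlapped with it, and the log2 difference in hcr1-2 was 0.45 (SE 0.14, limma adjusted p = 0.903). AT5G38540, also on chromosome 5, read 2.53, 2.10 and 3.05 in hcr1-1, 3.13, 2.83 and 3.33 in hcr1-2, and 2.54, 2.55 and 2.74 in Col-0. Its hcr1-2 arrays lay above Col-0 (log2 difference 0.49, SE 0.21, limma adjusted p = 0.903), opposite in sign to AT5G35940. AT1G52110 stood at 0.35 (SE 0.16) in hcr1-2. On the lower side of Col-0 in hcr1-2 were AT1G52130 at -0.38 (SE 0.13) and AT1G52070 at -0.38 (SE 0.17). In hcr1-1 the same loci read -0.22 for AT1G52130 and -0.03 for AT1G52070.

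**Figure D3:**
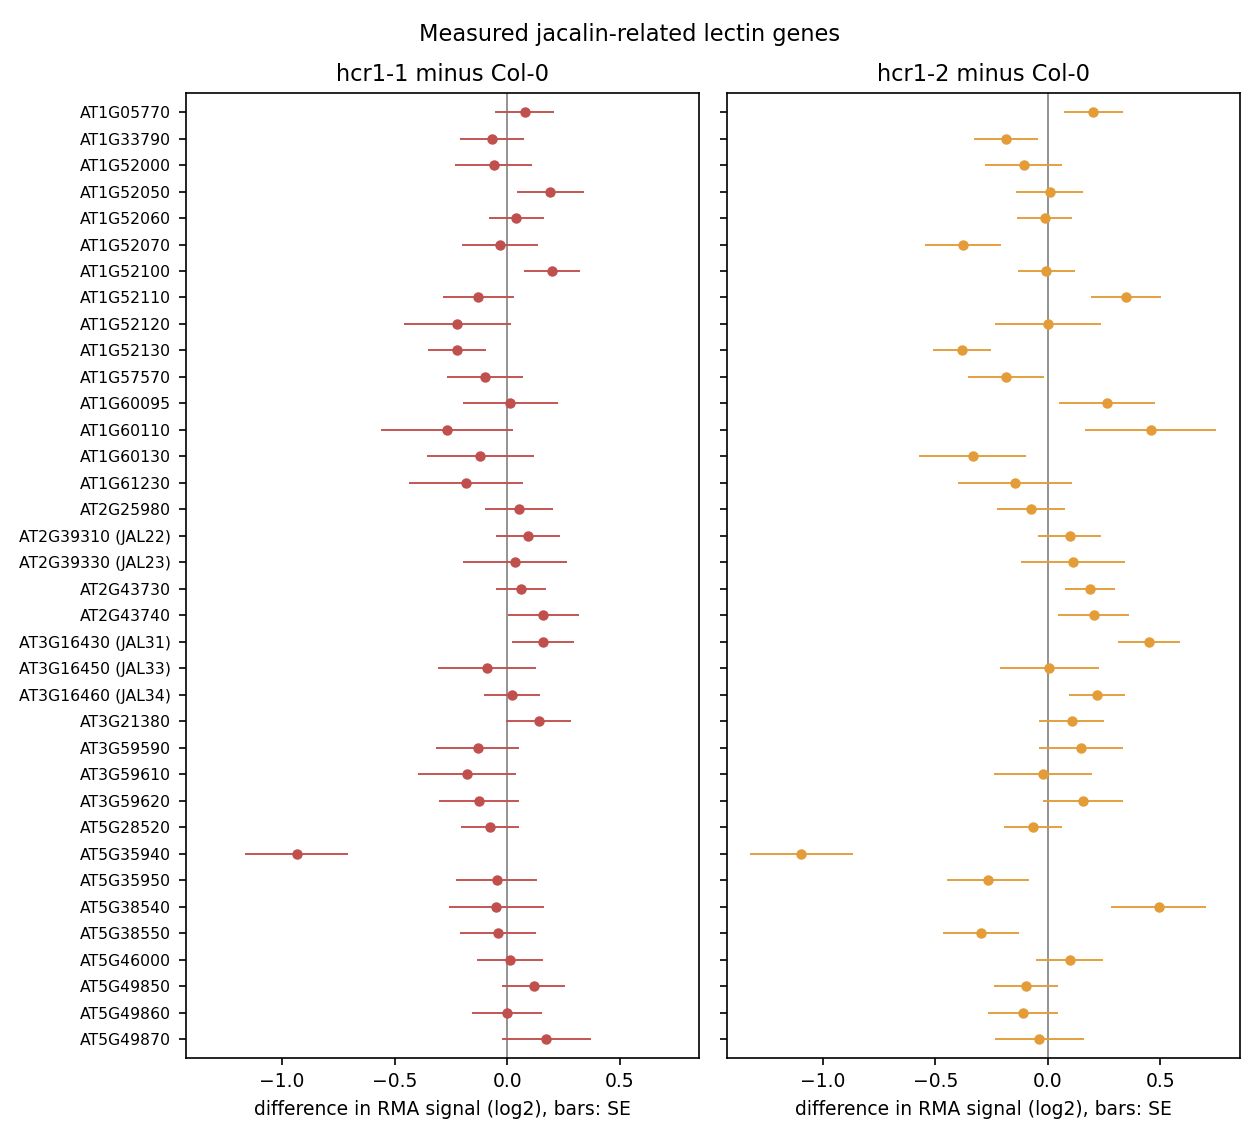
Log2 difference in RMA signal from Col-0 (horizontal axis) for the 36 measured jacalin-related lectin genes, in hcr1-1 and in hcr1-2. Points are fitted differences and bars their SE from limma. AT5G35940 stands at -0.94 and -1.10, and the 35 other members lie between -0.38 and 0.49.

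The 6 jacalin-related lectin genes with the strongest signal, other than AT5G35940, included AT1G52070, given above, and none of them was called, where 0% of all rows were. JAL34 (AT3G16460) had a log2 signal of 8.69 to 8.99 in hcr1-1, 8.94 to 9.14 in hcr1-2 and 8.73 to 8.99 in Col-0. In the tandem group on chromosome 1, AT1G52060 had log2 differences from Col-0 of 0.04 in hcr1-1 and -0.01 in hcr1-2, and AT1G52050 had 0.19 in hcr1-1 and 0.01 in hcr1-2. AT2G25980 stood at 0.05 in hcr1-1 and -0.08 in hcr1-2. AT1G60110 read 4.34, 5.55 and 5.47 in hcr1-1, 5.62, 5.92 and 5.99 in hcr1-2, and 4.94, 5.57 and 5.65 in Col-0, so its hcr1-2 arrays lay above those of hcr1-1 (log2 difference 0.72, SE 0.29, limma adjusted p = 0.923), where 5.31% of all rows showed that separation. Of the 35, 19 had a mean signal under 3, below the median of 3.41 over all rows of the table.

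Genes that work with jacalin-related lectins in roots were followed as lists. Of the PYK10 and endoplasmic reticulum body list, 6 of 10 loci were measured, and by limma 0 were called, as were 0% of all rows. At an unadjusted p under 0.05 it was 0 in hcr1-1, where 1.28% of all rows were lower and 1.95% higher. It was also 0 in hcr1-2, where 2.35% and 3.05% were. The list had a median log2 difference of 0.083 in hcr1-1, where 5 of 6 lay above Col-0, and 0.17 in hcr1-2, where all 6 did, beside medians over all rows of 0.0029 and 0.011. The array mean of the list deviated within genotypes against AT5G35940, with a Pearson r of -0.77 over the 9 arrays. How far that r rests on single arrays was not tested, and the members named here had weaker values. PYK10 (AT3G09260) had a signal of 10.70, 10.70 and 10.63 in hcr1-1, 10.80, 10.83 and 10.72 in hcr1-2, and 10.46, 10.72 and 10.59 in Col-0. The hcr1-2 arrays lay above Col-0 for PYK10 and for BGLU21, a separation seen in 6.1% of all rows. BGLU21 (AT1G66270), a related beta-glucosidase, stood at 0.09 in hcr1-1 and 0.14 in hcr1-2, and NAI2 (AT3G15950), which is needed to form the bodies, at 0.01 in hcr1-1 and 0.14 in hcr1-2, with SEs of 0.11 for BGLU21 and 0.10 for NAI2. Taken singly, the r of deviations with AT5G35940 was -0.37 for PYK10, -0.58 for BGLU21 and 0.0011 for NAI2. None of the 11 listed genes of glucosinolate breakdown had a row that could be used. Of 15 lectins of other families, 11 were measured, with 0 called by limma, where 0% of all rows were, and medians of -0.060 in hcr1-1 and -0.0061 in hcr1-2. AT1G78850, a lectin with a mannose-binding domain of the snowdrop type, stood at -0.10 (SE 0.14) in hcr1-1 and -0.32 (SE 0.14) in hcr1-2. Its limma adjusted p in hcr1-2 was 0.903, and all 3 hcr1-2 arrays lay below Col-0, as in 4.34% of all rows. It was the 1 member of that list at an unadjusted p under 0.05 in hcr1-2, where 2.35% of all rows were lower. Its neighbour AT1G78860 stood at 0.01 in hcr1-1 and -0.03 in hcr1-2.

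The core hypoxia genes, which plants switch on when oxygen runs short, were set beside AT5G35940 array by array. Over the 23 measured of 48 listed loci, the mean signal (log2) was 6.30, 5.06 and 6.39 in hcr1-1, 5.14, 5.27 and 5.85 in hcr1-2, and 6.62, 5.77 and 6.78 in Col-0, in the order of replicates 1 to 3. Within hcr1-1 and within Col-0, replicate 2 was lowest and replicate 3 highest in both that mean and AT5G35940, whereas in hcr1-2 the order differed. An order of 3 arrays says little. AT5G35940 hardly varied in hcr1-2 (SD 0.075), so whether it moved with that mean there cannot be read. It varied most in hcr1-1 (SD 0.56), so every r of deviations with AT5G35940 weighs those 3 arrays most. Deviations from the genotype means had a Pearson r of 0.73 and a Spearman rho of 0.75 over the 9 arrays. This is a description of arrays that share the genotype means, and without the 2 arrays farthest out, hcr1-1 replicate 2 and Col-0 replicate 2, r was 0.37, so the relation rested on those. Each of the 23 genes had a positive r with AT5G35940 on that measure over all 9 arrays, with a median of 0.71. All rows had a median of -0.014, with quartiles of -0.30 and 0.27. The 2 arrays farthest out enter each of these values too, so the 23 genes add no separate support to the r of their mean. With that array mean added to the model as a covariate, the log2 difference of AT5G35940 was -0.73 (SE 0.19) in hcr1-1 and -0.67 (SE 0.23) in hcr1-2, and hcr1-2 stood 0.062 above hcr1-1. The core hypoxia mean itself was lower than in Col-0 by 0.47 in hcr1-1 and 0.97 in hcr1-2, so it overlaps with genotype, and its part in the result beyond this fit was not tested.

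**Figure D4:**
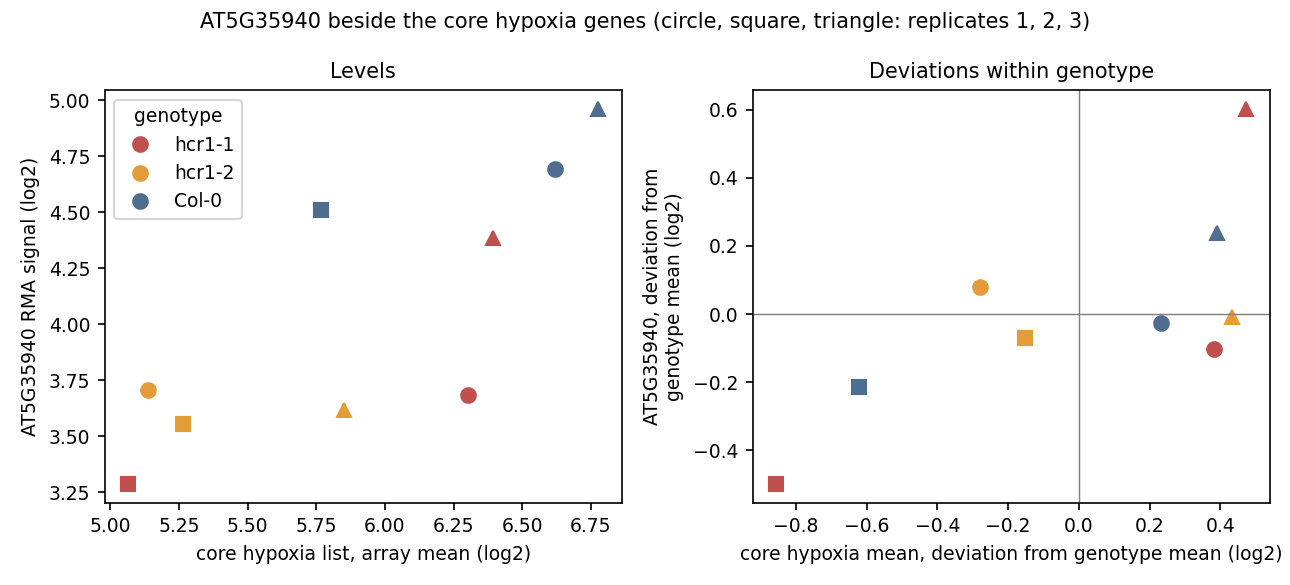
AT5G35940 signal (log2, vertical axis) against the mean signal of the 23 measured core hypoxia genes (log2, horizontal axis), as levels on the left and as deviations from each genotype mean on the right. Points are the 9 arrays, coloured by genotype. The deviations have r = 0.73, and hcr1-1 replicate 2 lies lowest on both axes.

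Few markers of tissue content could be measured, and none was called by limma, where 0% of all rows were, so that count says nothing about tissue content. The 2 measured shoot genes averaged 4.36 to 4.56 (log2) in hcr1-1, 4.49 to 4.65 in hcr1-2 and 4.44 to 4.67 in Col-0. The 2 measured cortex markers averaged 4.61 to 5.11 in hcr1-1, 4.78 to 5.01 in hcr1-2 and 4.85 to 5.004 in Col-0. The 2 root hair expansins EXPA7 and EXPA18 averaged 4.12 to 4.35 in hcr1-1, 4.24 to 4.54 in hcr1-2 and 4.02 to 4.51 in Col-0. These array means of the 3 lists overlapped between the genotypes. The shoot genes went opposite ways beside AT5G35940 within genotypes: RCA, which activates the carbon-fixing enzyme Rubisco, had an r of deviations of 0.89 over 9 arrays, and LHCB4.1, an antenna protein of photosystem II, had -0.46. RCA differed from Col-0 by -0.11 in each line. LHCB4.1 stood at -0.08 (SE 0.14) in hcr1-1 and 0.11 (SE 0.14) in hcr1-2. All 3 hcr1-2 arrays lay above Col-0 for LHCB4.1, as in 6.1% of all rows. EXPA7 stood at 0.04 in hcr1-1 and 0.01 in hcr1-2, and EXPA18 at 0.02 in hcr1-1 and 0.37 (SE 0.20) in hcr1-2. None of the listed markers of non-hair epidermis, endodermis, stele or root cap could be used, so the share of those tissues was not tested.

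The genes with the most similar pattern were named by Pearson r with AT5G35940 over the 9 arrays, among the 8372 other rows with a mean at or above the median. With so many rows and so few arrays, high values must occur, and 10 rows had an r of at least 0.9. AT4G40042 came first at r = 0.94, then AT1G01450 at 0.93, the chloroplast gene psbA for the D1 protein of photosystem II at 0.93, AT4G33160 at 0.92 and bZIP58 (AT1G13600), a transcription factor of the basic leucine zipper class, at 0.92. Deviations from genotype means alone gave these 5 an r of 0.84 to 0.95, which picking by r over the same arrays favours. Their own differences were small: bZIP58 stood at -0.22 (SE 0.12) in hcr1-1 and -0.26 (SE 0.12) in hcr1-2, AT1G01450 at -0.20 in hcr1-1 and -0.27 in hcr1-2, and AT4G33160 at -0.04 in hcr1-1 and -0.07 in hcr1-2. The most opposed patterns belonged to AT5G42770 at r = -0.94, AT1G25530, of the amino acid transporter family, at -0.93, and BRK1 (AT2G22640), a subunit of the complex that starts actin branching, at -0.92. BRK1 read 4.84, 5.08 and 4.72 in hcr1-1, 5.02, 4.93 and 5.11 in hcr1-2, and 4.68, 4.72 and 4.59 in Col-0, so all 6 mutant arrays lay above Col-0, by 0.22 (SE 0.12) in hcr1-1 and 0.36 (SE 0.12) in hcr1-2. An opposite pattern to AT5G35940 favours that separation, which 1.11% of all rows showed. None of these 8 genes was called by limma in any comparison (adjusted p from 0.903 to 1), where 0% of all rows were.

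Within the lectin family, the member with the highest r between pools was not the one with the highest r over the levels. AT5G38540 had the highest r with AT5G35940 for deviations within genotypes, 0.89 over 9 arrays, yet an r of 0.0085 over the levels. AT5G35950, the neighbouring lectin gene, had an r of 0.11 for deviations and 0.35 over the levels. For deviations the other measured neighbours had -0.96 (AT5G35926, mean signal 2.05), 0.16 (AT5G35930) and 0.39 (AT5G35945). AT1G52130, with the highest r over the levels among the 35 at 0.69, had 0.090 for deviations. Over the 35 members the r of deviations ran from -0.84, in AT1G52000, to 0.89, with a median of -0.038.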

How the data were processed

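Root RNA was hybridised to Affymetrix Arabidopsis Gene 1.1 ST array strips, 1 array per sample, 3 per genotype. The deposited values were log2 signals made with Affymetrix Expression Console and RMA, per the submitters' processing notes, with versions, settings and genome build not given in the sources used here. RMA corrects for background, forces all arrays to a shared distribution and summarises the probes of each row as 1 value, so a change in total RNA or in part of a transcript can be missed. No detection call, scan date or slide was used here. The number of arrays limits the precision.

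Of 38408 rows, 16746 had exactly 1 gene in the platform annotation, 758 had several and 20904 were not listed and stayed unnamed here. Names were updated through a RefSeq gene table (TAIR10.1, also used for gene order), which matched 16601 rows. A gene with several rows was read from the row with the highest mean. No other row held the 9 values of AT5G35940. No protein or promoter sequence was used here.

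Groups came from the sample titles. limma 3.58.1 in R 4.3.3 was fitted to all 9 arrays with genotype as the only term, and p-values were two-sided with Benjamini-Hochberg adjustment over the 16746 rows, called at 0.05. The script was tested on simulated data. The gene and the gene lists were chosen with earlier results of these data known. Named genes were AT5G35940, HCR1, the 2 nearest measured loci on each side, the jacalin-related lectins on chromosome 5 and the 6 with the highest means, the 5 highest and 3 lowest correlations, and up to 3 members of each other list. JAL31, AT1G52110 and AT1G52130 were named after their values were seen. Alternatives are given in the closing section.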

Additional observations from a re-analysis of the deposited data

How the results depend on the processing

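The differences of AT5G35940 from Col-0 stayed below 0 under all alternatives run, for either line and for their mean. Leaving out an array could not change that sign, since every mutant array read lower than every Col-0 array. Leaving out each array in turn gave -1.24 to -0.69 in hcr1-1, -1.20 to -0.98 in hcr1-2 and -1.17 to -0.89 in the mean of both lines. A further set of alternatives, which were the arrays compared alone, the replicate block, quantile normalization, median centring, leaving out dim rows, testing all rows, other variance models and array weights, gave -0.95 to -0.87 in hcr1-1 and -1.11 to -1.10 in hcr1-2. Of these, only quantile normalization, median centring and array weights can move the difference itself. The rest can change its SE but not its value, so their agreement is no check on it. The core hypoxia mean as a covariate, chosen after seeing the data, moved hcr1-2 to -0.67 and turned hcr1-2 minus hcr1-1 to 0.062; the cause was not tested. Leaving out arrays gave -0.41 to 0.14 for hcr1-2 minus hcr1-1, with 0.14 from the fit without hcr1-1 replicate 3. None of the other lectin genes was called by limma under any alternative run for them, also at an adjusted p of 0.1. No alternative called more than 2 of all the rows it tested, and at an adjusted p of 0.1 it was 0. The absence of calls therefore says little about the family. The covariate was not run for them, and leaving out dim rows tested 11 of the 35. The mean of both lines needs all 9 arrays, so it had no fit of the compared arrays alone.

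The median of the other lectin genes stayed near 0. Leaving out dim rows gave 0.040 in hcr1-1, 0.094 in the mean of both lines and -0.053 in hcr1-2 minus hcr1-1, over fewer members. Leaving out arrays gave -0.036 to 0.025 in hcr1-1, -0.017 to 0.062 in hcr1-2, -0.0073 to 0.059 in the mean of both lines and -0.049 to 0.071 in hcr1-2 minus hcr1-1.

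The labels do not say that a replicate number marks a shared batch, and same-numbered arrays had a correlation of deviations of -0.19 to 0.16, with 4 of 9 highest for their own number, so the numbers were not taken to pair the samples. With the replicate block the differences of AT5G35940 were again -0.94 and -1.10, as they must be when every genotype has each number. Only the SE could change, from 0.23 to 0.18, so the same values are no check for a batch. No call changed.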
